A study of Mus musculus with 32 samples.

Results

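Transcripts of 9 genes that mark pluripotent cells were followed in P19 cells, a mouse embryonal carcinoma line that grows as undifferentiated cells and can be driven to form neural or muscle cells in culture. The genes were Pou5f1, Sox2, Nanog, Sall4, Utf1, Lin28a, Lin28b, Tdgf1 and Dnmt3b. They were taken by symbol from the gene tables, in which they are 9 of 38201 genes, and by gene identifier from the exon tables. The rule that finds them is a list of names and uses no measured value. The cells had been transfected for 36 h with an esiRNA, a mixture of short interfering RNAs made by enzyme from a long RNA, against SRSF1, SRSF2, SRSF3, SRSF4, SRSF5, SRSF6 or SRSF7, or against GFP as the control. Poly(A)+ RNA was sequenced from whole cells and from the cytoplasmic fraction, in replicates A and B of each of the 8 groups, which gave 32 libraries. The methods and the design text give 2 biological replicates per condition, and the labels do not say what the libraries of a letter share. No other treatment or allele was named, and every group came from the same cell line. A fall in a bulk sample can come from fewer expressing cells or from less RNA per cell, and these cannot be told apart here.

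Pou5f1 (Oct4), Sox2 and Nanog are transcription factors at the core of the network that keeps embryonic cells undifferentiated. Sall4 is a zinc-finger factor that works with Pou5f1, and Utf1 is a chromatin-bound factor of undifferentiated embryonic cells. Lin28a and Lin28b encode RNA-binding proteins that block the maturation of let-7 microRNAs. Tdgf1 encodes Cripto, a co-receptor for Nodal at the cell surface, and Dnmt3b encodes an enzyme that places new methyl groups on DNA. The proteins that were knocked down are SR proteins, which bind exons and act in splicing, and some of which take part in 3' end processing and in export of mRNA.

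The gene tables hold a normalised read count, estimated reads that the authors scaled to a common depth within a fraction. A whole-cell library summed to between 29596616 and 32831667, and a cytoplasmic library to between 32128467 and 38371995. Each knocked-down gene kept between 48.8% and 68.7% of the control level in the whole cell, with 7 of 7 below both controls, and between 37.8% and 77.0% in the cytoplasm, with 6 of 7 below both. The exception was SRSF2 knockdown in the cytoplasm, at 77.0%. Its cytoplasmic comparisons thus rest on the smallest fall of a target. Marker lists of other cell types were also detected in the whole cell, where the summed normalised read counts over 16 libraries ran from 7642 to 10763 for neural genes, from 1587 to 6822 for mesoderm, from 2060 to 4094 for endoderm and from 566 to 999 for trophectoderm. A mean of at least 10 was reached by 8 of 10 neural, 9 of 10 mesoderm, 9 of 10 endoderm and 7 of 8 trophectoderm genes. None of the genes in these 4 lists was at 0 in every library. That is a weak mark, since only 1 of 10 pancreas genes was at 0 throughout. How far single genes made up these sums was not examined.

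The genes lie on several chromosomes of mm10, the build of the exon tables. They are Pou5f1 (ENSMUSG00000024406, chr17:35506037-35510776), Sox2 (ENSMUSG00000074637, chr3:34650005-34652461), Nanog (ENSMUSG00000012396, chr6:122707489-122714633), Sall4 (ENSMUSG00000027547, chr2:168748332-168767943), Utf1 (ENSMUSG00000047751, chr7:139943789-139945112), Lin28a (ENSMUSG00000050966, chr4:134003330-134018841), Lin28b (ENSMUSG00000063804, chr10:45376620-45470201), Tdgf1 (ENSMUSG00000032494, chr9:110939610-110946158) and Dnmt3b (ENSMUSG00000027478, chr2:153649450-153687730). An alternative exon of Dnmt3b, bin E018 of the exon tables (chr2:153670849-153670908, plus strand, 60 bases), is shown because its reads relative to the next bin were lowest after SRSF1 knockdown in both fractions, as described with the exon results. The sequence comes from the NCBIM37 genome, where the annotated exon of that length lies at chr2:153496585-153496644. The bin starts of the gene and annotated exon boundaries differ by 1 constant distance between the builds, at 34 of 34 starts. Capitals mark the exon and lower case the 20 intron bases on each side.
Dnmt3b exon of bin E018: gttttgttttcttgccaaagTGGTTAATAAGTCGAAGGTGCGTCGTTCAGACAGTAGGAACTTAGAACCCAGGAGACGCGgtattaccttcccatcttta
Of the 10 annotated coding transcripts that span it, 6 hold the exon and 4 lack it, and its length is a multiple of 3.

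All 9 genes were detected in all 32 libraries, and all 9 passed the filter on low values in both fractions. Levels between genes were compared per length, on the authors' FPKM (fragments scaled to transcript length and to sequencing depth), which combine both replicates of a condition and so have no SD. Pou5f1 led by far at 1968 FPKM in the whole-cell control, rank 53 of the 24710 genes above 0. Lin28a followed at 229 FPKM, Dnmt3b at 116 FPKM, Utf1 at 72.0 FPKM and Sall4 at 50.03 FPKM. Sox2 stood at 45.8 FPKM, Tdgf1 at 41.1 FPKM, Nanog at 36.0 FPKM and Lin28b at 20.4 FPKM. Over the 8 conditions the FPKM of Pou5f1 (1564 to 2117) stayed clear of the rest, and that of Lin28b (20.2 to 23.8) stayed below the rest. Among the others Dnmt3b (116 to 191) also stayed above Utf1 (56.8 to 113). The ranges of other neighbours overlapped, as for Lin28a (177 to 250) and Dnmt3b, or for Sox2 (33.8 to 61.2), Tdgf1 (28.7 to 60) and Nanog (26.6 to 47.6). In the cytoplasmic control Pou5f1 held rank 29 of 23296 genes at 5230 FPKM and Lin28a was again next at 316 FPKM. Utf1 at 167 FPKM then stood before Dnmt3b at 100.9 FPKM, and Lin28b was last at 2.17 FPKM.

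The spread over libraries differed between the genes. On the normalised read count, the 16 whole-cell libraries of Sall4 ran from 2134 to 2951, with a median of 2308, and those of Lin28b from 3006 to 4478, with a median of 3460. Those of Lin28a ran from 18128 to 27428, with a median of 22892. These 3 genes had the smallest spread of the 9 in the whole cell, from 1.38-fold for Sall4 to 1.51-fold for Lin28a. Tdgf1 was the most variable, from 799 in SRSF2 replicate A to 3777 in SRSF5 replicate A (4.73-fold). Dnmt3b ran from 9265 in control B to 30412 in SRSF4 replicate A (3.28-fold), and Nanog from 1255 in SRSF2 replicate A to 3357 in SRSF6 replicate A (2.68-fold).

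**Figure D1:**
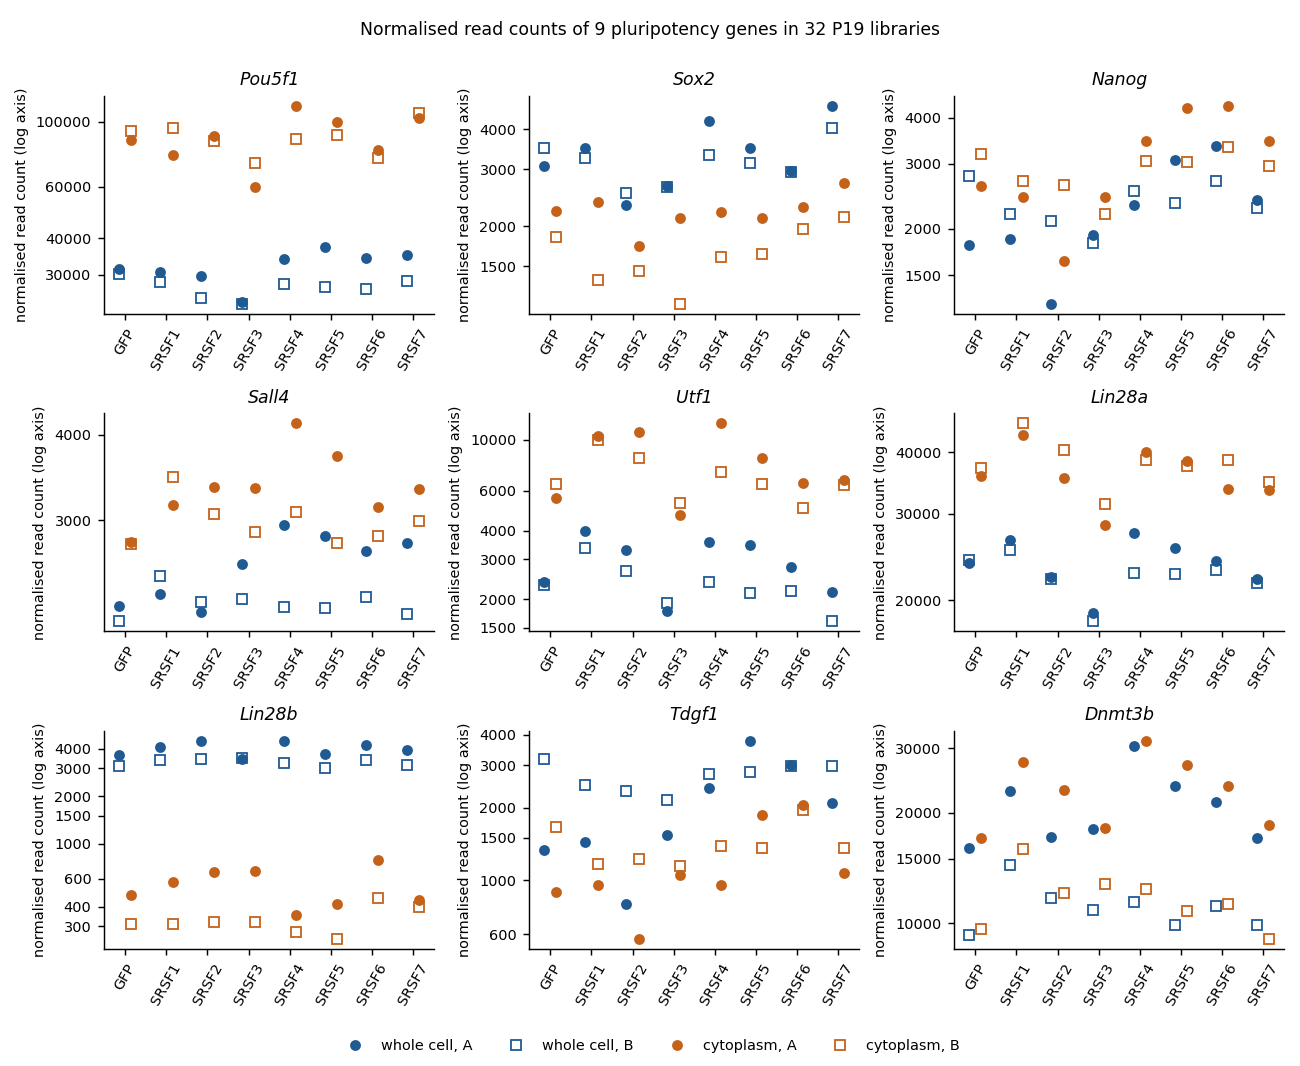
Normalised read count of each of the 9 genes (vertical log axis) in the 8 groups (horizontal axis), with whole cell in blue, cytoplasm in orange, filled circles for replicate A and open squares for replicate B. Dnmt3b replicate A lies above replicate B in every group, and Lin28b lies far lower in the cytoplasm than in the whole cell (250 to 783 against 3006 to 4478).

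The knockdowns were first compared with the GFP control gene by gene, to ask whether loss of an SR protein moved these transcripts. With limma over all genes and 2 libraries per group, 1 of the 63 whole-cell comparisons (9 genes by 7 knockdowns) passed an adjusted p of 0.05, and 5 had an unadjusted p below it. Among all 18540 genes tested the same rule called 0.804% after SRSF1, 0.0216% after SRSF2 and 11.4% after SRSF3 knockdown, 0% after loss of SRSF4, SRSF5 or SRSF6, and 0.0162% after that of SRSF7. The call was Lin28a after SRSF3 knockdown. The A minus B differences of every 2 groups correlated over genes, with a Spearman coefficient of 0.238 to 0.814 in the whole cell and 0.449 to 0.827 in the cytoplasm. For that reason a second model held the letter as a block, and its result for the 9 genes is given wherever it changed a call. With the block 6 whole-cell comparisons passed, and it called 10.9% of all genes after SRSF1 knockdown, 6% after SRSF2, 33.2% after SRSF3, 0.0108% after SRSF4, 0.00539% after SRSF5, 0.0216% after SRSF6 and 1.09% after SRSF7 knockdown. All 7 comparisons share the same 2 control libraries per fraction. An SE given with a log2 fold change is that of the model without the block unless the block is named with it.

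After SRSF3 knockdown Lin28a, Pou5f1 and Sox2 were lower in the whole cell than in the control. Lin28a stood at 18862 (A) and 18128 (B), against 23803 and 24136 in the control. Both knockdown libraries were the lowest of all 16. In this comparison the groups lay apart, in either direction, for 57.8% of 12643 genes. How many genes had both knockdown libraries at an extreme of the 16 was not counted, here or below. The log2 fold change of Lin28a was -0.39 (SE 0.10, n = 2 per group, limma adjusted p = 0.0289). With the letter as a block the adjusted p was 0.00229. The call was lost when any 1 of the 4 libraries was left out, where the adjusted p ran from 0.0595 without knockdown B to 0.147 without knockdown A and the log2 fold change from -0.37 to -0.40. It was also lost when only these 4 libraries were fitted (adjusted p = 0.154).

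Pou5f1 stood at 24173 and 23944 in the whole cell after SRSF3 knockdown and at 31337 and 30153 in the control. The groups did not overlap, as was the case for 57.8% of 12643 genes in this comparison. The log2 fold change of -0.37 passed with the block (SE 0.10, limma adjusted p = 0.0108) and not without it (SE 0.17, adjusted p = 0.177). Sox2 stood at 2672 and 2652 against 3074 and 3493 (log2 fold change -0.31, SE 0.13), with an adjusted p of 0.0357 with the block and 0.125 without. In the cytoplasm Pou5f1 stood at 60021 and 72155 after SRSF3 knockdown and at 86574 and 93066 in the control. The 2 knockdown libraries were the lowest of the 16, in a comparison where the groups lay apart for 39.8% of 11796 genes. The log2 fold change was -0.45 (SE 0.15, adjusted p = 0.203, and under the block 0.0425). Utf1 was at 1771 and 1929 in the whole cell against 2376 and 2317, a log2 fold change of -0.36 (SE 0.24) that passed neither model (adjusted p = 0.360, with the block 0.0707). Lin28a in the cytoplasm, at 28436 and 31300 against 35760 and 37102, did not pass either (log2 fold change -0.29, SE 0.12, adjusted p = 0.299, and under the block 0.0726).

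The other 5 genes gave no call after SRSF3 knockdown in either model or fraction. Sall4, at 2588 and 2303 in the whole cell against 2247 and 2134, had a positive log2 fold change of 0.15 (SE 0.16), and Dnmt3b one of 0.19 (SE 0.54). The median log2 fold change of the 9 genes in the whole cell was -0.27, with 3 above and 6 below 0, beside -0.003 over all genes tested.

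After SRSF1 knockdown Utf1 and Dnmt3b stood higher in both fractions, and the call depended on the block. Utf1 was at 3990 and 3356 in the whole cell against 2376 and 2317 in the control, a log2 fold change of 0.64 (SE 0.24, adjusted p = 0.259, with the block 0.0104). In the cytoplasm Utf1 was at 10445 and 9959 against 5557 and 6402 (log2 fold change 0.78, SE 0.23, adjusted p = 0.249, and under the block 0.0150). Both knockdown libraries lay above both controls in each fraction. The groups lay apart, in either direction, for 50.7% of 12643 genes in the whole cell and 37.1% of 11796 genes in the cytoplasm.

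Dnmt3b was at 22917 and 14360 in the whole cell after SRSF1 knockdown against 16024 and 9265, and at 27500 and 15957 in the cytoplasm against 17088 and 9658. Groups overlapped, because B of the knockdown lay below A of the control, while the knockdown was above the control within each letter. The log2 fold change was 0.57 in the whole cell (SE 0.54, adjusted p = 0.705, with the block SE 0.15, adjusted p = 0.0245). In the cytoplasm it was 0.71 (SE 0.59, adjusted p = 0.814, with the block SE 0.16, adjusted p = 0.0175). Without the block the value moved with single libraries, from 0.18 without control B to 0.97 without control A in the whole cell and from 0.29 to 1.13 in the cytoplasm. It was 0.24 and 0.32 without knockdown A, and 0.91 and 1.10 without knockdown B. A higher level than in the control was not limited to SRSF1. The log2 fold change of Dnmt3b in the whole cell was positive after every knockdown, from 0.09 (SRSF7) to 0.61 (SRSF4). In the cytoplasm it ran from -0.02 (SRSF7) to 0.71 (SRSF1). The control had the lowest Dnmt3b FPKM of all conditions in both fractions, at 116 and 100.9. Lin28a in the cytoplasm, at 43260 and 45766, had the highest levels of the 16 libraries (log2 fold change 0.29, SE 0.12), and the adjusted p was 0.451 without and 0.112 with the block. The groups lay apart for 37.1% of 11796 genes in that comparison.

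SRSF2 knockdown gave 1 call, for Sox2 in the whole cell with the block. Sox2 was at 2327 and 2525, the lowest of the 16 whole-cell libraries, against 3074 and 3493, a log2 fold change of -0.43 (SE 0.13, adjusted p = 0.230, and 0.0290 under the block). The groups lay apart, in either direction, for 43.3% of 12643 genes in this comparison. Utf1 in the cytoplasm passed neither model after SRSF2 knockdown, where it was at 10789 and 8315 against 5557 and 6402 (log2 fold change 0.66, SE 0.23, adjusted p = 0.553, and under the block 0.0591). For SRSF4, SRSF5, SRSF6 and SRSF7 no comparison of the 9 genes passed in either model. Among these Sox2 in the whole cell after SRSF7 knockdown, at 4733 and 4040, lay above both controls, beside 36.7% of genes that lay apart in either direction (log2 fold change 0.42, SE 0.13, adjusted p = 0.455, and under the block 0.0725). Dnmt3b after SRSF4 knockdown, at 30412 and 11412 in the whole cell, had a log2 fold change of 0.61 (SE 0.54, adjusted p = 1.00, and 0.457 under the block). Utf1 in the cytoplasm after SRSF4 knockdown, at 11835 and 7199, had a log2 fold change of 0.62 (SE 0.23, adjusted p = 0.917, and 0.209 under the block).

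In the cytoplasm limma called 0 of the 63 comparisons, with 6 at an unadjusted p below 0.05, and edgeR and DESeq2 on exon reads also called 0, with 6 each. Of all 17566 genes 0.0455% were called after SRSF1 and 0.529% after SRSF3 knockdown, and 0% after any of the other 5. With the block 3 comparisons passed, the Utf1 and Dnmt3b differences of SRSF1 and the Pou5f1 difference of SRSF3 given above. It called 5.9% of all genes after SRSF1 knockdown, 1.84% after SRSF2, 13.9% after SRSF3, 0.0114% after SRSF4, 0% after SRSF5, 0.0911% after SRSF6 and 0.074% after SRSF7 knockdown.

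The study asked whether SR proteins act on export, for which the change in the cytoplasm is set against that in the whole cell. For the 9 genes this interaction gave 0 of 63 calls with limma, and 0 with an unadjusted p below 0.05. With the block it gave 0 calls and 1 with an unadjusted p below 0.05, and edgeR and DESeq2 on exon reads gave 0 calls and 0 with an unadjusted p below 0.05. Of all 17030 genes limma without the block called 0.00587% (1 gene) after SRSF3 knockdown and 0% after the others. With the block it called 129 of these genes after SRSF3, 3 after SRSF1 and 0 after any other knockdown. Of 16538 genes edgeR called 2 after SRSF3 knockdown and 0 after the others. DESeq2 called 23 after SRSF3, 5 after SRSF1 and 0 after the others. Among the 9 genes the smallest unadjusted p of limma without the block was that of Utf1 after SRSF7 knockdown, at 0.235. Its log2 fold change was 0.43 (SE 0.35) in the cytoplasm relative to the whole cell. The SE of the interaction reached 0.87 for Dnmt3b, 0.64 for Tdgf1 and 0.53 for Lin28b without the block, and 0.25, 0.47 and 0.23 with it. Shifts of these genes between the fractions could be of that size or larger and still not be called with 2 libraries per group.

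**Figure D2:**
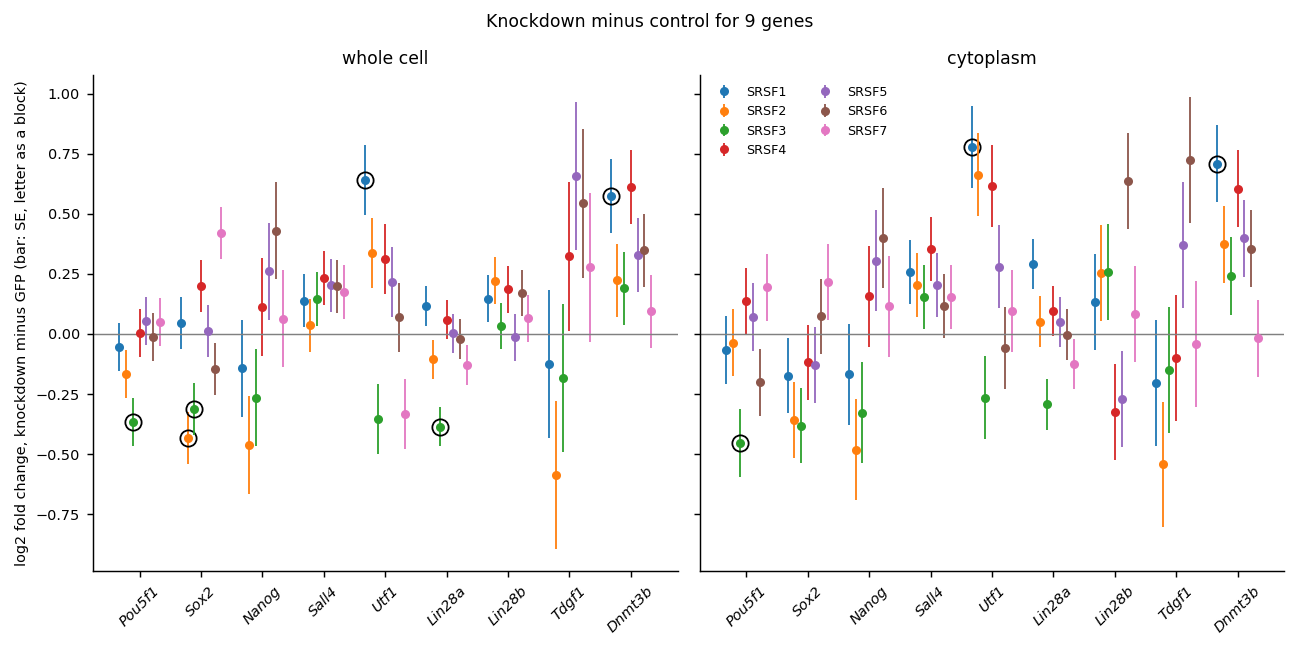
Log2 fold change of each gene, knockdown minus GFP control (vertical axis), with the whole cell on the left and the cytoplasm on the right, with a colour for each knockdown, bars for the SE of the model with the letter as a block, and black rings where that model's adjusted p was below 0.05. The 6 rings of the whole cell are Utf1 and Dnmt3b for SRSF1, Sox2 for SRSF2, and Pou5f1, Sox2 and Lin28a for SRSF3, and the 3 rings of the cytoplasm are Utf1 and Dnmt3b for SRSF1 and Pou5f1 for SRSF3.

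Genes of the pathways around the members were read first from the model without the block, which called 11.4% of all genes after SRSF3 knockdown in the whole cell. The counts below are to be read against that share. After SRSF3 knockdown in the whole cell 0 of 24 tested partners of the pluripotency network rose and 4 fell. These were Sall1 (log2 fold change -0.73, adjusted p = 0.0239), a Sall4 relative, Rif1 (-0.66, 0.00914), a telomere and replication protein, Otx2 (-0.66, 0.0239), a homeobox factor of the epiblast and brain, and Dppa4 (-0.59, 0.0187), a chromatin protein of early embryos. Of 14 naive network genes 1 rose, the homeobox gene Gbx2 (1.32, 0.0443), and 0 fell. Of 14 genes around Lin28 and let-7, 2 rose and 2 fell. Those that rose were Zcchc6 (0.79, 0.0131), a uridyltransferase that modifies let-7 precursors, and Trim71 (0.62, 0.0394), a let-7 target. Those that fell were Hmga2 (-0.74, 0.00291) and Igf2bp2 (-0.33, 0.0180), which are let-7 targets as well. Of 15 Nodal pathway genes 1 fell, Smad3 (-0.47, 0.0483), a transducer of the signal, and none of 12 DNA methylation genes passed. In the same comparison 3 of 8 neural markers (Sox1, Map2 and Stmn2), 2 of 9 endoderm markers (Col4a1 and Sox7), 1 of 8 epiblast markers (Otx2) and 3 of 10 smooth muscle and fibroblast markers (Myl9, Cnn1 and Thy1) fell and none of them rose. With the block, which called 33.2% of all genes, the counts were 0 higher and 9 lower of the 24 partners, 1 and 2 of the 14 naive genes, 3 and 5 of the 14 let-7 genes, 1 and 6 of the 15 Nodal genes, and 2 and 2 of the 12 DNA methylation genes. Among the markers of other cell types the block called 0 higher and 3 lower of 8 epiblast, 0 and 3 of 8 neural, 0 and 2 of 9 mesoderm, 0 and 4 of 9 endoderm, 1 and 1 of 8 trophectoderm, and 0 and 5 of 10 smooth muscle and fibroblast genes. The part of these marker lists in the lower level of Lin28a was not tested. After SRSF1 knockdown in the whole cell, where no gene of these lists passed without the block, the block called 3 higher and 1 lower of 12 DNA methylation genes, 0 and 3 of 14 naive genes, 2 and 1 of 24 partners, 1 and 1 of 15 Nodal genes and 1 and 0 of 14 let-7 genes, beside 10.9% of all genes. In the cytoplasm 1 of the 15 Nodal genes rose after SRSF3 knockdown, Acvr2b (1.97, 0.00253), an activin receptor that also binds Nodal.

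The fractions were compared through each gene's share of its table, since the tables were scaled separately. No test was made across them. For the 11334 genes whose mean reached 100 in both tables the median ratio of the cytoplasmic to the whole-cell share was 0.933, with quartiles of 0.459 and 1.51. Pou5f1 had a ratio of 2.22 to 3.02 over the 16 pairs of libraries (median 2.62), which put it at percentile 99.0 of the genes. Utf1 was next at 2.06 to 3.23 (median 2.50, percentile 98.0). Both thus took a larger share of the cytoplasmic than of the whole-cell RNA in 16 of 16 pairs. Lin28a (1.22 to 1.56, median 1.41, percentile 71.1), Sall4 (1.06 to 1.34, median 1.14) and Nanog (0.988 to 1.33, median 1.13) came next, and Dnmt3b (0.745 to 1.17, median 0.942) stood near the median of all genes.

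Sox2, Tdgf1 and Lin28b were under-represented in the cytoplasm in 16 of 16 pairs. The ratio of Sox2 was 0.344 to 0.788 (median 0.497, percentile 27.3) and that of Tdgf1 was 0.330 to 0.677 (median 0.455, percentile 24.7). Lin28b had the lowest of the 9, at 0.0658 to 0.193 (median 0.101, percentile 2.94). The ranges of Lin28a and Lin28b, which encode closely related proteins, did not overlap. For scale, the median ratio of the nuclear RNA Malat1 was 0.00923, that of Firre 0.0448, of Miat 0.0555, of Meg3 0.0565 and of Neat1 0.0911. Rian (0.197) and Mirg (0.264) of the same list lay above Lin28b.

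The ratio of some genes also moved with the replicate letter. Nanog had ratios of 1.15 to 1.33 in the 8 A pairs and 0.988 to 1.10 in the 8 B pairs, which did not overlap. The medians for Lin28b were 0.123 in A and 0.0800 in B, with overlap, and those for Sox2 0.631 and 0.436. The summed counts of the nuclear RNA list in the cytoplasm were higher in A than in B in 8 of 8 groups (3298 to 5750 against 2505 to 3768), and their part in the ratios was not tested.

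**Figure D3:**
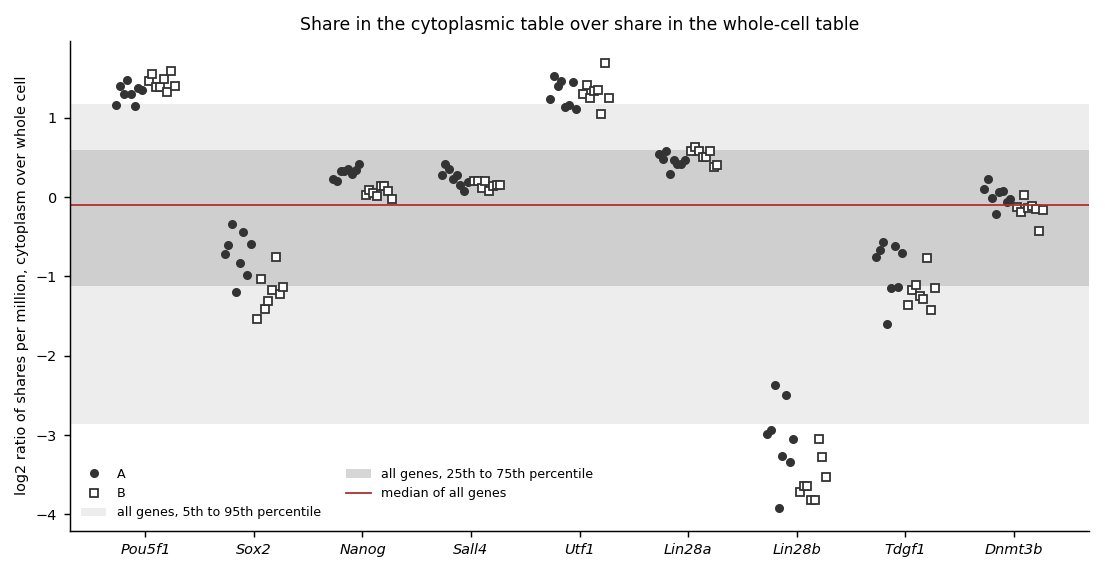
Log2 of the ratio of shares, cytoplasm over whole cell (vertical axis), for each gene in 16 pairs of libraries, with filled circles for replicate A and open squares for B. The dark grey band spans the quartiles of 11334 genes, the light band their 5th to 95th percentile, and the red line is their median (a ratio of 0.933). The medians of Pou5f1 (2.62) and Utf1 (2.50) lie above the light band and that of Lin28b (0.101) below it.

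Replicates A and B differed for most of the 9 genes. In a model of group and letter, limma called 6 of 9 genes in the whole cell, where 39.3% of all genes were called, and 5 of 9 in the cytoplasm, where 51.9% were. Differences between the letters were thus common among all genes. In the whole cell 5 genes were higher in A (Pou5f1, Sall4, Utf1, Lin28b and Dnmt3b) and Tdgf1 was lower, and in the cytoplasm 4 were higher in A (Sox2, Sall4, Lin28b and Dnmt3b) and Tdgf1 was lower. Nanog and Lin28a were called in neither fraction.

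Dnmt3b differed most. Its 8 whole-cell A libraries ran from 16024 to 30412 (median 19738) and the 8 B libraries from 9265 to 14360 (median 11007). In the cytoplasm A ran from 17088 to 31387 (median 23331) and B from 9067 to 15957 (median 11668). Every A library was above every B library in both fractions. Such a full separation of the letters, in either direction, held for 3.35% of 12643 genes in the whole cell and 6.33% of 11796 genes in the cytoplasm, and among the 9 genes for Dnmt3b alone. The log2 difference, A minus B, was 0.89 in the whole cell (SE 0.08, adjusted p = 3.417e-07, higher in A in 8 of 8 groups) and 0.97 in the cytoplasm (SE 0.08, adjusted p = 3.733e-07, 8 of 8). The ratio of A to B ran from 1.47 after SRSF2 to 2.67 after SRSF4 knockdown in the whole cell.

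Lin28b followed, mainly in the cytoplasm. Its cytoplasmic A libraries ran from 352 to 783 (median 525) and the B libraries from 250 to 453 (median 317), with overlap. The log2 difference was 0.69 there (SE 0.10, adjusted p = 3.732e-05, higher in A in 8 of 8 groups) and 0.28 in the whole cell (SE 0.05, adjusted p = 2.926e-04, 7 of 8). Sox2 was higher in A in 8 of 8 cytoplasmic groups, with a log2 difference of 0.45 (SE 0.08, adjusted p = 1.995e-04), and in the whole cell the difference of 0.07 (SE 0.05) did not pass (adjusted p = 0.361).

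Tdgf1 went the other way. In the whole cell it ran from 799 to 3777 in A (median 1814) and from 2156 to 3168 in B (median 2771), and it was lower in A in 6 of 8 groups. In the SRSF5 groups it was higher in A, at 3777 against 2799. The log2 difference was -0.54 in the whole cell (SE 0.15, adjusted p = 0.0103) and -0.35 in the cytoplasm (SE 0.13, adjusted p = 0.0347). In the control alone Tdgf1 stood at 1339 in A and 3168 in B, and without the control libraries the cytoplasmic difference of -0.27 did not pass (adjusted p = 0.104) while the whole-cell difference of -0.44 did (0.0326).

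**Figure D4:**
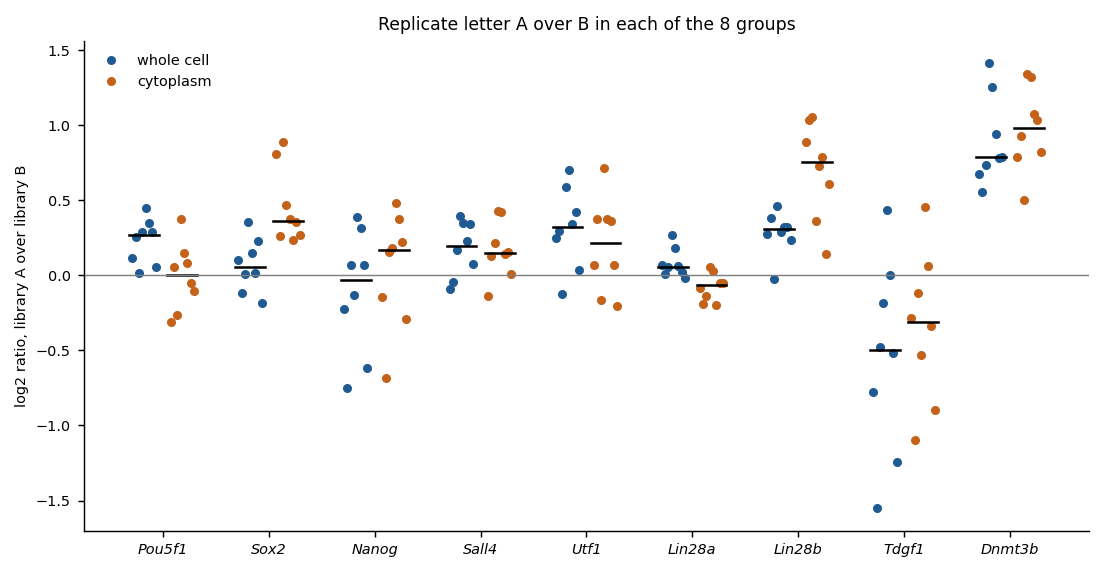
Log2 ratio of the normalised read count in library A over library B (vertical axis) for each gene, with 1 point for each of the 8 groups, whole cell in blue and cytoplasm in orange, and black bars at the medians. All 16 points of Dnmt3b are above 0 (ratios of 1.42 to 2.67), and those of Tdgf1 spread furthest, from a ratio of 0.341 to 1.37.

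Genes of the same pathways were also called between the letters, where 39.3% of all genes in the whole cell and 51.9% in the cytoplasm were, and several of the counts lie near these shares. Of 12 DNA methylation genes 4 were higher and 3 lower in A in the whole cell, and 7 and 2 in the cytoplasm. Dnmt3a, the other de novo methyltransferase, was higher in A (log2 difference 0.48 and 0.93), and Dnmt3l, a cofactor of both enzymes, was lower (-1.04 and -1.16). Of 15 Nodal pathway genes 3 were higher and 6 lower in the whole cell, and 1 and 8 in the cytoplasm. Cfc1, a relative of Tdgf1 (-1.94 and -2.03), and Lefty2, a Nodal inhibitor (-1.49 and -1.25), were among those lower. Of 14 naive network genes 2 were higher and 7 lower in each fraction, with Klf2 (-1.18 and -1.39) among those lower and Nr0b1 (1.11 and 1.02) among those higher. The let-7 list of 14 genes had 1 higher and 4 lower in the whole cell and 10 higher and 2 lower in the cytoplasm. Of 24 partners 7 were higher and 2 lower in the whole cell, and 14 and 2 in the cytoplasm.

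Among markers of other cell types, mesoderm markers were lower in A in the whole cell (0 of 9 higher, 8 lower), as were trophectoderm markers (0 of 8 higher, 6 lower), beside 39.3% of all genes called. The summed count of smooth muscle and fibroblast genes, as of these 2 lists, was higher in A in 0 of 8 groups in either fraction. Sums of the other lists were mixed. A was higher in 5 of 8 whole-cell and 6 of 8 cytoplasmic groups for neural, in 2 and 6 for epiblast and in 2 and 3 for endoderm genes. Pancreas genes were near 0 in the whole cell, with a summed count of at most 12.4. In the cytoplasm they summed to between 23.2 and 583 in A, with a median of 499, and to between 6.95 and 16.9 in B. In the cytoplasmic SRSF2 pair the pancreas sum was 23.2 in A and 11.9 in B, and Dnmt3b stood at 22986 against 12094, Lin28b at 659 against 322 and Sox2 at 1735 against 1446. The part of these lists in the letter differences of the 9 genes was not tested.

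Likeness between genes was described by Pearson's r of log2 values over the 16 whole-cell libraries, which share the 8 groups and 2 letters. Among pairs of the 9 genes r ran from -0.48 (Lin28b with Tdgf1) to 0.91 (Nanog with Tdgf1). It was 0.78 for Sall4 with Dnmt3b and for Utf1 with Lin28a, 0.71 for Pou5f1 with Lin28a and 0.61 for Pou5f1 with Sox2. For each of the 9 the 2 most similar of 12642 other genes were then found. Nanog was most like Tdgf1 (r = 0.91, with 0.97 within the 8 A and 0.91 within the 8 B libraries). Lefty1 followed (0.89, with 0.94 within A and 0.55 within B). Tdgf1 was most like Tdgf1-ps1 (0.96), a pseudogene copy that reads of Tdgf1 may be assigned to and that held 5.7% to 8.6% of the Tdgf1 level in the whole cell, and then T (0.94), which encodes brachyury. No other pair of the 9 genes was among these closest matches. Pou5f1 was most like Gm19553 (0.95) and Ube2e3 (0.93), Sox2 like Tars (0.89) and Cisd2 (0.88), and Utf1 like Ly6e (0.94) and Klhdc3 (0.92). Lin28a was most like Mboat7 (0.97) and Rbpms2 (0.95). Lin28b was most like Gm5529 (0.91, with 0.68 within A and 0.91 within B) and Tmem82 (0.91, with 0.87 within A and 0.70 within B). Sall4 was most like Skida1 (0.90, with 0.92 within A and 0.48 within B) and Rnf34 (0.89, with 0.89 within A and 0.64 within B). Dnmt3b was most like Gm14490 (0.98) and Armcx6 (0.97). The r of Lin28b with Dnmt3b was 0.84 over the 16 libraries, but 0.43 within A and 0.67 within B.

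Exon use was read from bins, stretches of a gene cut at exon boundaries, with mm10 coordinates. The test, limma's diffSplice at an adjusted p of 0.1, compared the change of a bin with that of the other bins of the gene in 2 knockdown and 2 control libraries. Under edgeR the difference was instead taken against the reads of the whole gene, the bin included. The sizes of the differences from limma and edgeR are thus not comparable, above all where 1 bin holds most of the reads. Sox2 has 1 bin and could not be tested, and Dnmt3b had the most, with 27 to 30 of 34 bins tested. In the whole cell 1 bin of the 9 genes was called over the 7 knockdowns. Of all bins 0.314% were called after SRSF1 knockdown, 0.107% after SRSF2, 0.384% after SRSF3, 0% after SRSF4 and after SRSF5, 0.00328% after SRSF6 and 0.072% after SRSF7 knockdown. In the cytoplasm 1 bin was called, beside 0.175% of all bins after SRSF1 knockdown, 0.0139% after SRSF2, 0.48% after SRSF3, 0.00207% after SRSF4, 0.0027% after SRSF5, 0.00666% after SRSF6 and 0.0484% after SRSF7 knockdown. With the block there were 2 calls in the whole cell and 8 in the cytoplasm, counted per bin and knockdown. Some cytoplasmic bins were called after more than 1 knockdown. The block called 0.506% of all whole-cell bins for SRSF1 and 0.154% for SRSF7, and 0.908% of all cytoplasmic bins for SRSF1, 1.75% for SRSF3 and 0.315% for SRSF7.

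The smallest adjusted p under the block was that of the Dnmt3b exon shown above, bin E018, after SRSF1 knockdown. The ratio of its reads to those of the next bin, E019, is given in percent. After SRSF1 knockdown it was 47.8% (A) and 57.9% (B) in the whole cell, from 768 reads in E018 beside 1606 in E019 and from 568 beside 981, and 48.9% and 53.7% in the cytoplasm. In the control it was 83.0% and 83.7% in the whole cell and 76.6% and 82.7% in the cytoplasm. The 14 libraries without SRSF1 knockdown ran from 70.2% to 91.0% in the whole cell and from 71.3% to 96.9% in the cytoplasm. Both SRSF1 libraries were thus the lowest of their fraction. How many other bins lay apart in this way was not counted. The bin and its ratio to E019 were chosen after their values were seen. Against the other bins of the gene the log2 difference of E018 was -0.67 in the whole cell (adjusted p with the block 0.000623) and -0.58 in the cytoplasm (0.000953), while the model without the block gave an adjusted p of 1.00 in each. Under edgeR on bin reads, without the block, the differences were -0.45 and -0.35, with adjusted p of 1.00. The lowest whole-cell ratios among the other knockdowns were those of SRSF7, at 72.2% and 70.2% in the whole cell, where the difference of -0.19 did not pass (adjusted p = 1.00). The level of Dnmt3b as a whole was higher after SRSF1 knockdown under the block, as given above.

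The bins at the 3' end of Sall4, Lin28a and Lin28b made up the next group, with reads given as a percent of those in the other bins of the gene. The last bin of Sall4, E001 (chr2:168748332-168750460, 2129 bases), was the bin called in the cytoplasm without the block, after SRSF3 knockdown. It held 118% and 113% there, against 169% and 167% in the control. The log2 difference was -0.58 (adjusted p = 0.0440, with the block 0.0156), and no call was left without any 1 of the libraries (adjusted p from 0.288 to 1.00) or under edgeR (1.00, difference -0.16). The whole-cell shares overlapped, at 84.3% and 73.4% after SRSF3 knockdown and 71.7% and 89.7% in the control. After SRSF1 knockdown the cytoplasmic share of this bin was 109% and 132%, called with the block alone (difference -0.48, adjusted p = 0.0226). Over the 16 cytoplasmic libraries the share ran from 109% (SRSF1 A) to 201% (SRSF7 B), with a median of 142%. Both controls lay above every library of SRSF1, SRSF2, SRSF4 and SRSF5 knockdown, and SRSF2 A stood at 116%. The B libraries of SRSF6 (187%) and SRSF7 lay above the control.

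In Lin28b the last bin, E001 (chr10:45376620-45381431, 4812 bases), held 442% and 434% of the other bins in the cytoplasm after SRSF3 knockdown, the lowest of the 16 libraries. How many other bins had both SRSF3 libraries at the lowest values was not counted. The control held 1317% and 1956% and SRSF7 knockdown 1724% and 1764%. The other bins of the control held only 30 and 16 reads, and those after SRSF3 knockdown 121 and 85. Of 7 nuclear RNAs 6 had a positive log2 fold change in the cytoplasm after SRSF3 knockdown (median 0.26, 0 called without the block, 2 higher and 0 lower with it), and 7 of 7 relative to the whole cell (median 0.46, 0 called without the block, 1 higher with it). Their part in the bin difference was not tested. The log2 difference after SRSF3 knockdown was -1.68 with the block (adjusted p = 0.00809) and -1.76 without it (0.515). Under edgeR it was -0.14 (1.00), taken against the whole gene, of which this bin held most reads. In the whole cell Lin28b ran from 529% to 720% over all 16 libraries. The last bin of Lin28a, E001 (chr4:134003330-134006243, 2914 bases), held 825% and 849% in the cytoplasm after SRSF3 knockdown, 810% and 940% after SRSF1 knockdown, 1246% and 1350% after SRSF7 knockdown and 1035% and 1104% in the control. With the block these differences were called, at -0.40 for SRSF3 (adjusted p = 0.0449), -0.31 for SRSF1 (0.0708) and 0.28 for SRSF7 (0.0954), and none was called without it.

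The whole-cell bin called without the block was E002 of Pou5f1 (chr17:35507482-35508069, 588 bases), which lies between the first coding exon and the next, after SRSF1 knockdown. It held scaled counts of 56.1 and 56.4 against 31.7 and 32.5 in the control (log2 difference 0.80, adjusted p = 0.0894). These counts were 0.118% and 0.126% of the reads in the other bins, against 0.0671% and 0.0660% in the control, and over all 16 libraries the share ran from 0.0496% to 0.126%. The call was lost with the block (adjusted p = 0.200), under edgeR (0.630) and without any 1 of the libraries (0.628 to 1.00). The other 2 calls with the block were in Dnmt3b, bin E005 in the whole cell after SRSF7 knockdown (difference 0.91, adjusted p = 0.0924, at 107 and 49.8 against 41.2 and 34.3) and bin E033 in the cytoplasm after SRSF1 knockdown (-0.32, 0.0825). No bin of Nanog, Utf1 or Tdgf1 was called in either model, and their smallest p without the block, in Nanog E008 and Utf1 E001 after SRSF3 and Tdgf1 E002 after SRSF5 knockdown, had an adjusted p of 1.00 each. In Lin28a the smallest p in the whole cell was that of E011 after SRSF3 knockdown (difference 0.89, adjusted p = 0.222).

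**Figure D5:**
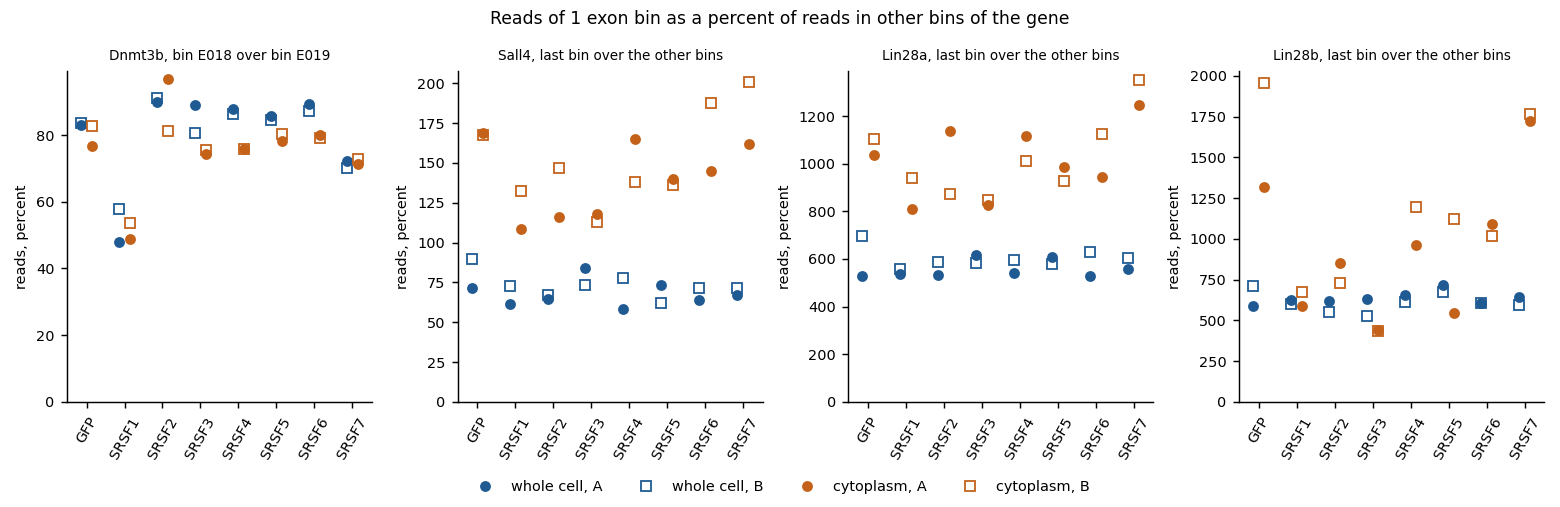
Reads of 1 bin as a percent of those in the next bin (Dnmt3b) or in the other bins of the gene (Sall4, Lin28a and Lin28b) for each group, with whole cell in blue, cytoplasm in orange, filled circles for replicate A and open squares for B. The SRSF1 libraries of Dnmt3b lie at 47.8% to 57.9%, below the others of 70.2% and more, and the cytoplasmic SRSF3 libraries of Lin28b (442% and 434%) are its lowest.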

How the data were processed

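Poly(A)+ RNA of P19 cells was sequenced in 32 libraries. The submitters' processing notes name CASAVA 1.8.2, cutadapt (version not given in the sources used here), Cufflinks 2.1.1, Bowtie2 2.1.0, and TopHat2 in versions 2.0.10 and 2.0.9. For each library the deposited gene tables give a signal, estimated reads per gene after the authors' scaling to a common depth. The deposited exon tables give a signal too, the reads of a bin over a library's DEXSeq size factor. The FPKM values were deposited by the authors per condition, with both replicates combined. Their fold changes and p-values of transcripts and bins, and their MISO isoform tables, hold the authors' own comparisons and were not used.

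Values were tested as log2 of the value + 1 with limma 3.58.1 (TMM factors between 0.930 and 1.08, filterByExpr, trended variance, Benjamini-Hochberg adjustment over all genes tested), with all 16 libraries of a fraction in 1 fit and both fractions in the interaction. Genes passed at an adjusted p below 0.05. Genes listed at 0 in a library whose exon bins held at least 100 reads of them and high in other libraries, 4 in each table, were left out. diffSplice was run on bins whose mean reached 5, at an adjusted p of 0.1. Division of the bin values by the step of a library gave whole reads (38874542 to 59470730 per whole-cell and 41417374 to 72741730 per cytoplasmic library), to within 0.01. edgeR 4.0.16 and DESeq2 1.42.0 were run on these reads summed per gene. The gene tables did not give whole reads. R 4.3.3, Python 3.11.15, numpy 2.4.6, pandas 2.3.3 and matplotlib 3.10.9 were used, and the models were tested on data with 200 known changes.

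The A minus B differences of every 2 groups correlated over genes (Spearman 0.238 to 0.814 in the whole cell and 0.449 to 0.827 in the cytoplasm, 28 pairs of groups). On that ground A and B were treated as paired across groups, which no label states. The 9 genes and the gene lists were chosen with earlier results of these data known. All 9 genes were named with values. Of each list the genes called against the control without the block were named, at most 6 per comparison. Of the list genes called between the letters only some were named, and those called under the block alone were not named. For each of the 9 genes the 2 genes with the highest r were named, among those with a mean of at least 100. Of the bins, those called were named, and otherwise the bin with the smallest p of each gene. Bins called under the block alone, and the share of E018 relative to E019, were chosen after their values were seen.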

Additional observations from a re-analysis of the deposited data

How the results depend on the processing

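With the letter as a replicate block the comparisons passed rose from 1 to 6 in the whole cell and from 0 to 3 in the cytoplasm, while the interaction kept 0. The bin calls, counted per bin and knockdown, rose from 1 to 2 and from 1 to 8. When only the libraries of a comparison were fitted, the whole-cell count was 0. Leaving out any 1 replicate gave between 0 and 0 whole-cell comparisons and between 0 and 0 bins in each fraction. edgeR on bin reads called 0 bins in each fraction. Without the filter on low values the letter passed 3 genes in the cytoplasm, as Sall4 (adjusted p = 0.0641) and Tdgf1 (0.0605) no longer passed, and 5 in the whole cell in place of 6, as Sall4 (0.0517) did not pass. The cause of these moves was not tested. The authors' own scaling, a pseudocount of 10, a bin mean of at least 20, and edgeR and DESeq2 on exon reads (chosen after seeing the data) kept every count of calls. Over 20 fold changes of named genes 147 of 165 values stayed on their side of the threshold, 10 became weaker and 8 stronger. Over 11 results for named bins 57 of 77 did, with 11 weaker and 9 stronger, and none of these values changed sign. The planned edgeR and DESeq2 tests on reads recovered from the gene tables were not run, because those tables did not give whole reads. The FPKM values carry no replicates, so the order of neighbouring genes could not be tested.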
